A study of Mus musculus with 11 samples.

Results

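The 9 genes described here encode proteins of the tight junction: the claudins *Cldn1*, *Cldn2*, *Cldn3*, *Cldn4*, *Cldn7*, *Cldn15* and *Cldn23*, occludin (*Ocln*) and zonula occludens-1 (*Tjp1*). They were chosen by gene symbol as a family, by a rule that uses no measured value although earlier results of these data were known, and are 9 of the 45777 genes for which the authors deposited read counts. RNA was sequenced from whole skin and whole small intestine (SI) of BALB/c mice, female or male and 8 to 10 weeks old, with no genetic modification named in the annotation. All mice were shaved and received 62.5 mg of cream per day for 5 to 8 days by the sample annotation, on the back and the right ear. The cream was 5% imiquimod (IMQ, Aldara), a TLR7 ligand that induces psoriasis-like dermatitis, or Vaseline as the vehicle in control mice. The skin gave 3 libraries of control mice (replicates 1 to 3) and 3 of IMQ-treated mice (4 to 6), and the SI gave 3 (7 to 9) and 2 (10 and 11).

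Tight junctions seal the space between neighboring epithelial cells near their apical side. Claudins are membrane proteins whose mixture sets which ions and how much water pass between the cells, since some claudins seal and others form pores. Occludin is another membrane protein of the junction, and zonula occludens-1 is the scaffold beneath the membrane that ties claudins and occludin to the actin cytoskeleton. In the epidermis the junctions lie in the granular layer, and in the SI they form a belt around every cell of the epithelial monolayer. The study measured tight junction transcripts by PCR to assess barrier integrity in the SI of IMQ-treated mice, and reported reduced expression. It also reported less occludin protein by staining of the SI and more orally given FITC-dextran in serum. The comparisons below address RNA only, by sequencing in both tissues, for some of the genes measured by PCR and for further claudins.

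Promoter windows from RefSeq (GRCm38.p6, 250 bases before and 50 bases after the annotated start) were matched by symbol for 8 of the 9 genes, with 10 windows in all. Of these, 4 are shown: that of *Cldn1*, the most abundant claudin transcript of the skin, those of *Cldn3* and *Ocln*, the genes called lower in IMQ-treated skin, and that of *Cldn2*, the pore-forming claudin that was nearly absent from skin. Capitals mark matches to the GC box (GGGCGG), the TATA box (TATAAA) or the CDX motif (TTTATG), searched on both strands, so CCGCCC is a GC box on the other strand. The motifs do not overlap each other in these windows. The windows are chr16:26371790-26372089 on the minus strand for *Cldn1*, chr5:134985964-134986263 on the plus strand for *Cldn3*, chr13:100552669-100552968 on the minus strand for *Ocln* (the first of its windows) and chrX:139800558-139800857 on the plus strand for *Cldn2*.
Cldn1: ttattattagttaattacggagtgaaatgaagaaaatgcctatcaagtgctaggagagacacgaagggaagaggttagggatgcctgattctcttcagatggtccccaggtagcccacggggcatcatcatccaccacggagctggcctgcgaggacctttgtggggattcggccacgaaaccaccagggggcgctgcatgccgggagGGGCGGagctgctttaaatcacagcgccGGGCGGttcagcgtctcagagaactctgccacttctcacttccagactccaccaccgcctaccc
Cldn3: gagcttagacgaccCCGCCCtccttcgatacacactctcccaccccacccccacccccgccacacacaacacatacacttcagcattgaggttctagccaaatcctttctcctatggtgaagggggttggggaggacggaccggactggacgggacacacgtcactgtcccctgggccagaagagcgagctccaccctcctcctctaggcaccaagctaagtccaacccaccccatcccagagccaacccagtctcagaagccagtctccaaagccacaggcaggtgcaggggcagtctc
Ocln: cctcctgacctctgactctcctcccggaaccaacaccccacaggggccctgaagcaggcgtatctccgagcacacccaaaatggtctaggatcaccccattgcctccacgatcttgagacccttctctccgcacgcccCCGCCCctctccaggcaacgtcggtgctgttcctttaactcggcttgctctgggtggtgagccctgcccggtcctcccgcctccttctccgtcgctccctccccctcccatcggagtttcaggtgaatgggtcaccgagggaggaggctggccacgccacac
Cldn2: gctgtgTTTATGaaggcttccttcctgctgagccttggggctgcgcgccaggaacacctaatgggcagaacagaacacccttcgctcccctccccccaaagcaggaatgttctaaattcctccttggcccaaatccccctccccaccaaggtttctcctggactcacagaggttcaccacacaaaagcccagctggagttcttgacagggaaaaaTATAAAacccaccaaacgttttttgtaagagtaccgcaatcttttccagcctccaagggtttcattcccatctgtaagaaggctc

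The *Cldn2* window was the only member window with the CDX motif, which began 244 bases before the start, and with the TATA box, which began 35 bases before it. Over all 32851 promoter windows, 11.9% held the CDX motif and 13.6% the TATA box. A GC box stood in at least 1 window of each of the other 7 genes, with 2 in *Cldn1*, *Cldn4* and *Tjp1*. *Cldn7* and *Ocln* each had more than 1 window, and the first window of *Cldn7* held none. Over all windows, counted per window and not per gene, 35.7% held a GC box. The grainyhead motif (AACCNGTT) was found in no member window and in 2.09% of all windows.

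By the GENCODE annotation of mm10 (GRCm38), *Cldn3* (chr5:134986214-134987472) and *Cldn4* (chr5:134945119-134946934) each lie in 1 exon, 39280 bases apart on opposite strands. *Cldn15* lies on the same chromosome (chr5:136966616-136975858). The other members are *Cldn1* (chr16:26356642-26371841, 4 exons), *Cldn2* (chrX:139800828-139811386), *Cldn7* (chr11:69964779-69967885), *Cldn23* (chr8:35824712-35826559), *Ocln* (chr13:100496507-100552718) and *Tjp1* (chr7:65296165-65527781). No stretch of 100 bases of a member's transcripts was found in the transcripts of another gene. *Cldn3* overlaps the antisense gene *Wbscr25*, and the setting for strand in the counting is not given in the sources used here, but *Wbscr25* had at most 2 counts in any skin library and 24 in any SI library. *Tjp1* overlaps 3 unnamed gene models.

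The libraries had 44995414 to 58526384 counts, so members with few counts are limited by depth and the others by the spread between libraries. Libraries of the same group differed by more than sampling noise in each of the 10 pairs. Of the 8 basal and 8 suprabasal keratinocyte markers in the table all had counts in every skin library, and likewise the 8 markers of the SI epithelium in every SI library. Skin control replicate 2 also carried transcripts of the SI: the median level of 19 markers of enterocytes, goblet cells and Paneth cells was 1.40% of that in control SI, against a median of 0% in the other control skin libraries and at most 0.0455% in IMQ-treated skin. Summed over these markers, the counts were 13763, 37894 and 7158 in control replicates 1 to 3. In IMQ replicates 4 to 6 they were 1874, 3767 and 3411, below every control library. The part of this difference in the values of the members was not tested. For some members, values without skin control replicate 2 are also given below.

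The 2 tissues used different claudins. In control skin *Cldn1*, without which the epidermal barrier fails in mice, had the highest level, at 79.6, 99.2 and 57.0 FPKM (fragments scaled to transcript length and sequencing depth, so that genes can be compared) in replicates 1 to 3. *Cldn4*, a sealing claudin and a receptor of Clostridium perfringens enterotoxin, followed at 32.5, 33.6 and 21.5 FPKM. *Tjp1* was at 16.2, 17.3 and 12.9 FPKM. These 3 genes kept this order in each control library, and their ranges did not overlap.

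Below them in control skin, *Ocln* was at 4.42 to 7.70 FPKM and *Cldn23*, a claudin known from the differentiated surface of the intestine, at 2.60 to 8.86 FPKM, so these neighbors did not differ beyond their spread. *Cldn15* was at 2.62 to 5.45 FPKM and *Cldn3*, a sealing claudin, at 2.40 ± 0.920 FPKM (mean ± SD, n = 3). *Cldn7* ranged from 0.149 to 3.20 FPKM and *Cldn2* from 0.0169 to 0.204 FPKM, with the highest value of each in replicate 2.

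In control SI, *Cldn7*, a claudin that is abundant in the intestinal epithelium, reached 336, 401 and 435 FPKM in replicates 7 to 9. *Cldn15*, which forms a paracellular sodium pore needed for nutrient uptake, was at 343, 285 and 331 FPKM, so its range overlapped that of *Cldn7*. *Cldn3* was at 212, 156 and 145 FPKM, below both in every library.

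*Ocln* in control SI was at 31.6 to 37.4 FPKM and *Cldn2*, a cation and water pore of crypt cells, at 23.6 to 32.6 FPKM. *Tjp1* was at 15.4 to 21.5 FPKM and *Cldn23* at 9.65 to 13.6 FPKM. *Cldn4* was at 7.59, 9.43 and 39.9 FPKM, and the third value, of replicate 9, was above every *Ocln* value, whereas the other two lay below every *Cldn23* value. *Cldn1* had only 0.103 to 0.199 FPKM.

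**Figure D1:**
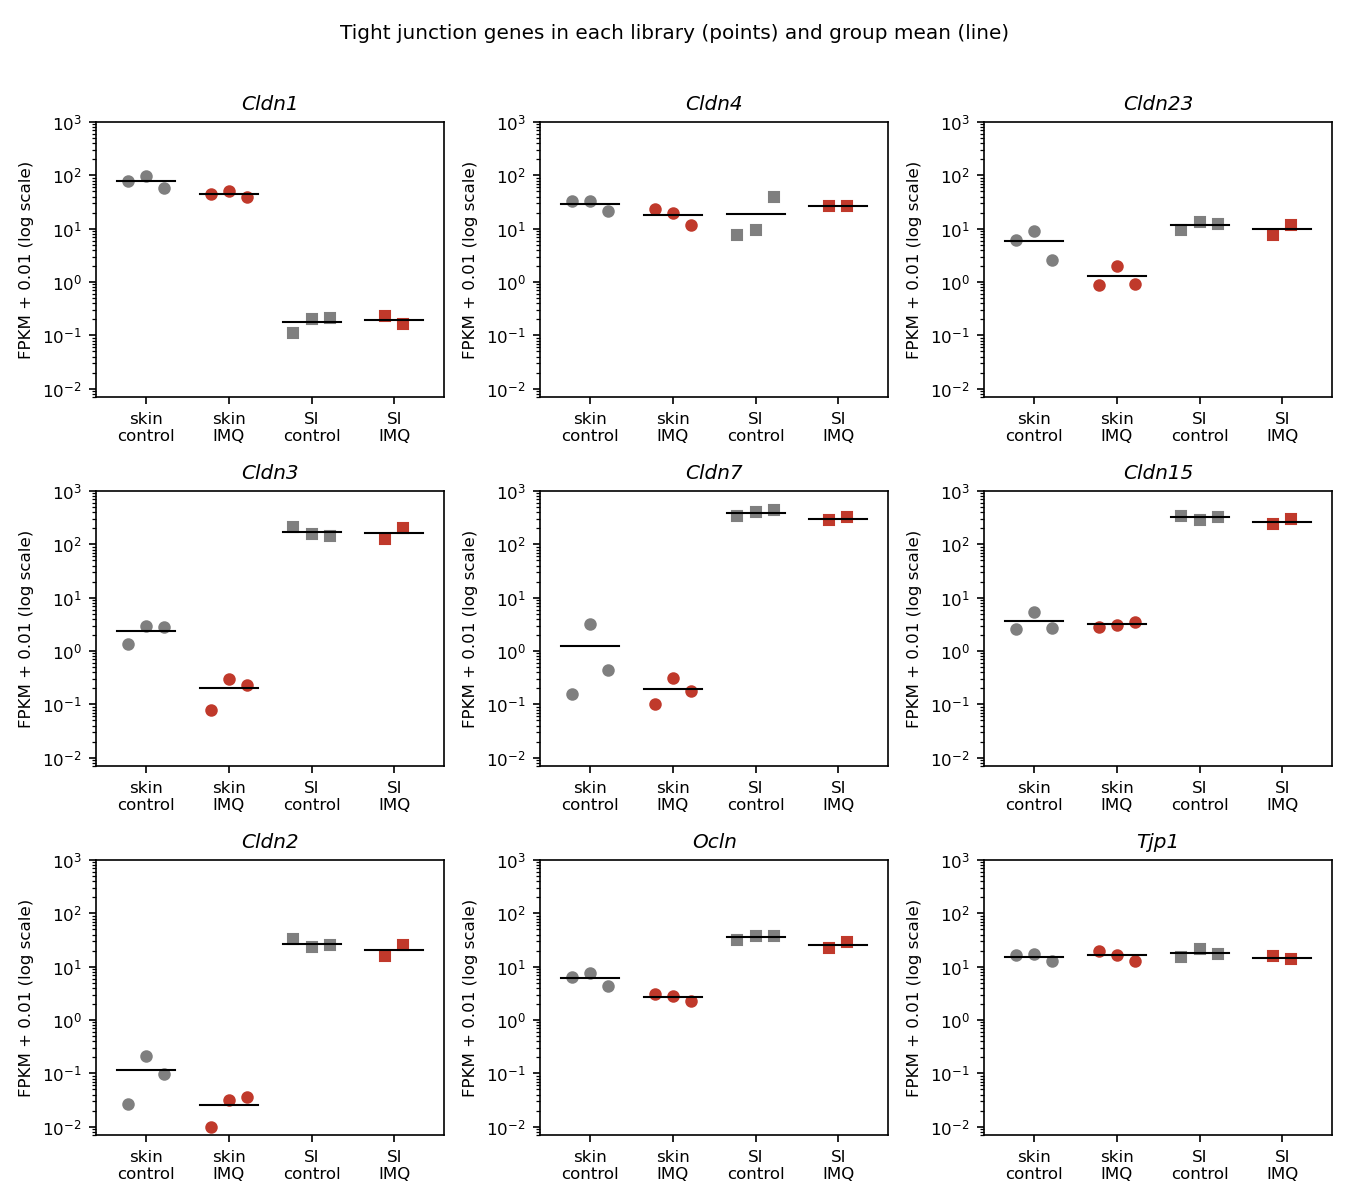
FPKM of each of the 9 genes in each of the 11 libraries, plotted as FPKM + 0.01 on a log scale, with 1 point per library (circles for skin, squares for small intestine, SI, gray for control and red for IMQ) and a line at the group mean. *Cldn1* is high only in the skin panels, *Cldn3*, *Cldn7*, *Cldn15* and *Cldn2* stand far higher in the SI, and *Tjp1* lies between 12.9 and 21.5 FPKM in all 11 libraries.

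Expressed as a share of the summed FPKM of the 34 claudin genes in the table, of which 24 had a count in some library, *Cldn1* made up 51.9% ± 4.04 (SD, n = 3) of claudin transcripts in control skin and *Cldn4* 19.4% ± 2.09. Claudins other than the 7 members held 20.2% ± 6.64. In control SI, *Cldn7* made up 41.0% ± 5.07, *Cldn15* 33.5% ± 2.24 and *Cldn3* 18.0% ± 3.93 (SD, n = 3), and the other claudins 1.47% ± 0.163. The sum itself was 121 to 180 FPKM in control skin and 903 to 1002 FPKM in control SI. In IMQ-treated mice it was 81.2 to 95.8 FPKM in skin and 714 to 898 FPKM in SI, below every control library of the tissue.

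**Figure D2:**
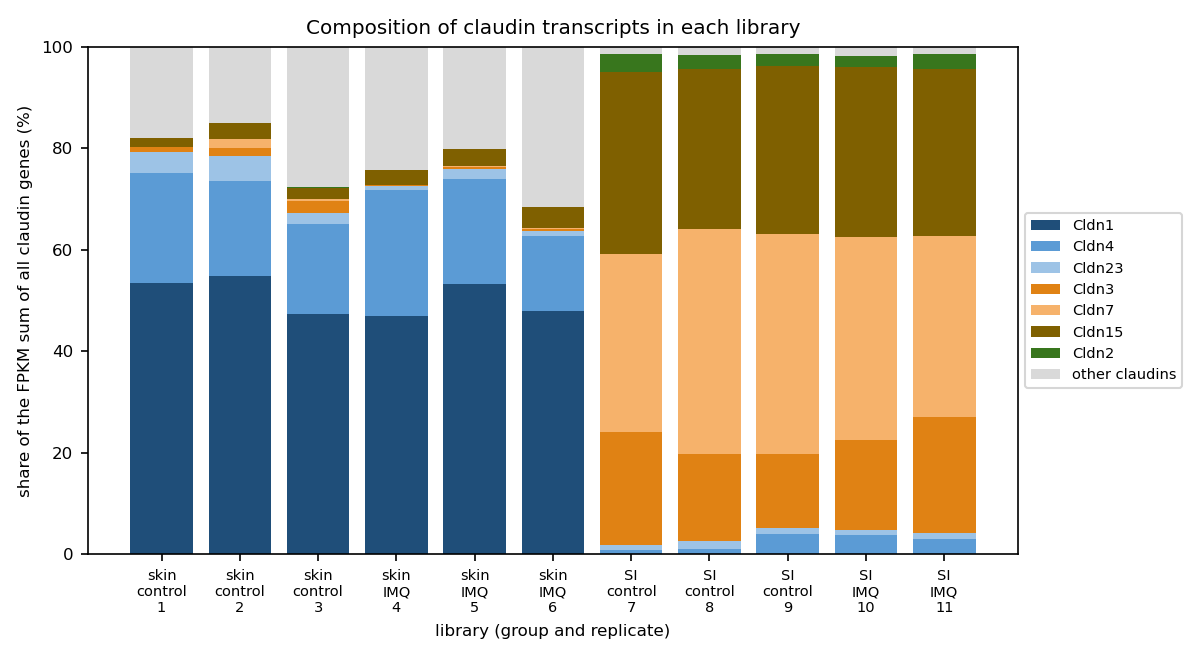
Share of each claudin in the summed FPKM of all claudin genes (vertical axis, %) in each of the 11 libraries (horizontal axis, group and replicate; SI, small intestine). *Cldn1* and *Cldn4* take most of each skin bar, and *Cldn7*, *Cldn15* and *Cldn3* most of each SI bar, with similar shares of these genes in control and IMQ libraries of a tissue. The bars do not show the sum, which was lower in the IMQ libraries of both tissues.

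Of the 8 members tested between control SI and control skin, 7 passed the quasi-likelihood test of edgeR at a threshold of 0.05 for the p-value, adjusted by Benjamini-Hochberg for every gene tested, where 57% of the 18108 genes tested were called. *Cldn2* was not tested because IMQ skin replicate 4 had no count of it. The members higher in the SI were 6 (28.2% of all genes were called higher there), and *Cldn1* was higher in the skin (28.8% of all genes). *Cldn1* was 342-fold lower in the SI (log2 fold change -8.42, SE 0.35, adjusted p = 2.67e-08, edgeR). *Cldn7* was 409-fold higher (8.68, SE 0.97), *Cldn15* 120-fold (6.91, SE 0.38), *Cldn3* 96.7-fold (6.60, SE 0.44) and *Ocln* 7.89-fold (2.98, SE 0.25).

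The remaining members differed less between the tissues. *Cldn23* was 2.70-fold higher in the SI (log2 fold change 1.43, SE 0.45, adjusted p = 0.0186, edgeR), but it was not called without skin control replicate 1 (adjusted p = 0.0537). *Tjp1* was 1.60-fold higher (0.68, SE 0.19, adjusted p = 0.0117, edgeR), but it was not called on the FPKM scale, where the adjusted p of limma was 0.306 and 0.316 with pseudocounts of 0.01 and 1. These scales moved the median of all genes by -0.44 and -0.24, and 72.3% of the genes called were then lower in the SI, against 50.5% with counts. *Cldn4* did not pass the test (log2 fold change -0.15, 95% confidence interval -1.37 to 1.08), and without SI control replicate 9 it was lower in the SI (-1.37, adjusted p = 0.00506, edgeR). Without skin control replicate 2 the log2 fold change of *Cldn7* was 10.85 and that of *Cldn3* 6.86. In that fit it was 7.42 for *Cldn15*, 1.95 for *Cldn23* and 3.25 for *Ocln*.

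In IMQ-treated skin, *Cldn3* and *Ocln* fell and the other members did not pass the test. Of the 8 members tested, 2 were called, both lower, where 6.74% of the 20512 genes tested were called and 2.69% were called lower. *Cldn2* was not tested in the skin for lack of a count in IMQ replicate 4, and its counts were 4, 33 and 14 in control replicates 1 to 3 and 0, 4 and 4 in IMQ replicates 4 to 6. The estimate was below 0 for 7 of the 8 members, with a median log2 fold change of -0.96 against -0.01 over all genes tested, whereas without skin control replicate 2 it was below 0 for 6 of the 8, with a median of -0.52. For 4 members (*Cldn1*, *Cldn3*, *Cldn23* and *Ocln*) every IMQ library lay below every control library, which held for 13.3% of all genes. In whole tissue, fewer cells of a type and less RNA per cell cannot be told apart.

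*Cldn3* had 98, 196 and 214 counts in control skin and 5, 20 and 14 counts in IMQ-treated skin. After normalization to the library size these were 88.7, 214 and 187 against 5.46, 20.6 and 14.8 normalized counts. The highest IMQ library was thus far below the lowest control library. *Cldn3* was 11.8-fold lower (log2 fold change -3.56, SE 0.54, 95% confidence interval -4.84 to -2.28, adjusted p = 0.0152, edgeR). It was called under each of the 10 other models, and without skin control replicate 2 it was at -3.32 (adjusted p = 0.0189). The call was lost without IMQ replicate 5 or 6 (adjusted p = 0.0552 and 0.0579, edgeR), although the log2 fold change was then -3.98 and -3.62.

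*Ocln* had 1315, 1714 and 895 normalized counts in control skin and 682, 587 and 480 in IMQ-treated skin. The groups did not overlap, and control replicate 3 was the nearest to the IMQ libraries. *Ocln* was 2.24-fold lower (log2 fold change -1.16, SE 0.26, 95% confidence interval -1.78 to -0.55, adjusted p = 0.0456, edgeR). This call lay close to the threshold: it was made under 7 of the 10 other models and, among the 6 fits with a library removed, in only 1, that without control replicate 3 (adjusted p = 0.0232). In the other 5 fits the adjusted p was 0.0527 to 0.166, at log2 fold changes of -1.29 to -0.92.

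*Cldn23* had 590, 921 and 249 normalized counts in control skin and 91.8, 208 and 90.1 in IMQ-treated skin. The groups did not overlap, but the controls differed among themselves by more than 3 times. Its log2 fold change was -2.17 (SE 0.55, adjusted p = 0.0655, edgeR), so it missed the threshold. Without control replicate 2 it was -1.69 (adjusted p = 0.0931, edgeR). *Cldn23* was called with DESeq2 (adjusted p = 0.000454), in 1 fit of all 11 libraries (0.0154), scaled to the basal keratinocyte markers (0.0296) and without control replicate 3 (0.0332).

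*Cldn1* had 13484, 18050 and 9550 normalized counts in control skin and 8296, 9113 and 6764 in IMQ-treated skin. Each IMQ library was below each control library, at a log2 fold change of -0.77 (SE 0.24, adjusted p = 0.119, edgeR) that did not pass the test. It was called with DESeq2 (adjusted p = 0.0365) and without control replicate 3 (adjusted p = 0.0489, edgeR). Without control replicate 2 the log2 fold change was -0.51 (adjusted p = 0.162, edgeR). *Cldn1* nonetheless had the highest FPKM of all members in each IMQ library, at 44.8, 51.1 and 39.0, and its share of claudin transcripts was 49.4% ± 3.37 (SD, n = 3).

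*Cldn7* showed how much skin control replicate 2 can weigh. It had 12, 215 and 34 counts in control skin and 7, 21 and 12 in IMQ-treated skin, so all but replicate 2 were low. Its log2 fold change was -2.68 (SE 1.13, adjusted p = 0.215, edgeR) with all libraries and -0.52 (adjusted p = 0.607) without that replicate. DESeq2 called it with all libraries (adjusted p = 0.0370). The level of *Cldn7* in replicate 2 was 0.820% of that in control SI, against 0.0381% and 0.110% in the other controls, and that of *Cldn2* was 0.751%, against 0.0622% and 0.329%. *Cldn15* had 281, 520 and 296 counts in control skin and 275, 309 and 325 in IMQ-treated skin, and its log2 fold change of -0.16 turned to 0.33 without replicate 2. *Cldn3* stood at 0.782%, 1.76% and 1.67% of its SI level in control replicates 1 to 3, so replicate 2 was close to replicate 3 there.

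**Figure D3:**
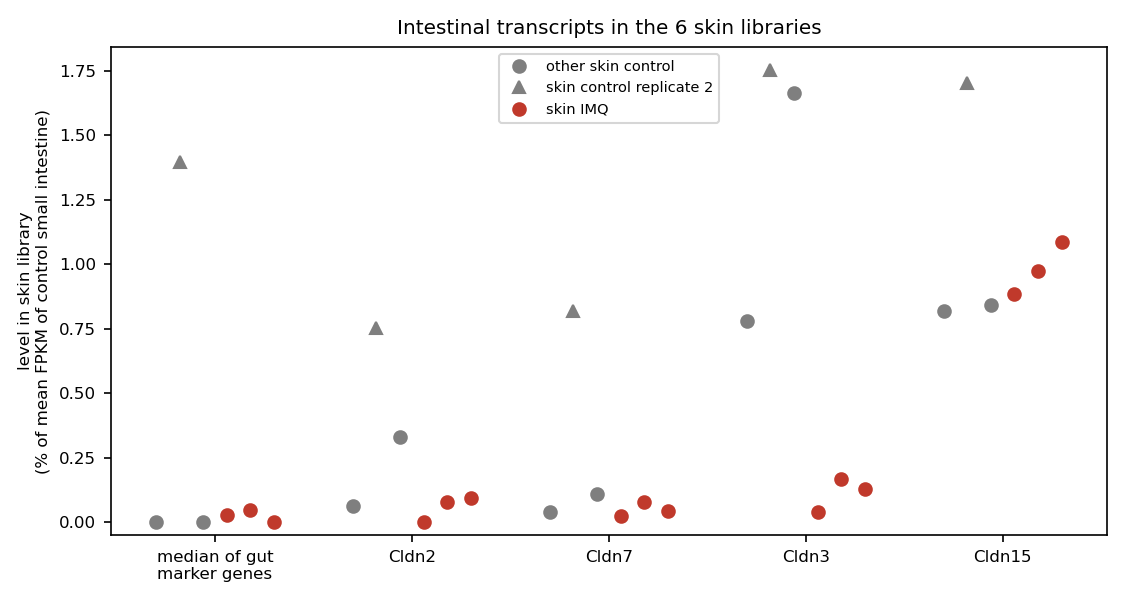
Level in each of the 6 skin libraries as a percent of the mean FPKM of control small intestine (vertical axis), for the median of 19 gut marker genes and for *Cldn2*, *Cldn7*, *Cldn3* and *Cldn15*. Gray marks control, with a triangle for replicate 2, and red marks IMQ. Replicate 2 stands apart at 1.40% for the gut markers and 0.820% for *Cldn7*, whereas for *Cldn3* control replicate 3 is nearly as high.

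*Cldn4* and *Tjp1* had the estimates nearest to 0 among the abundant members of the skin. *Cldn4* had 3075, 3420 and 2015 normalized counts in control skin and 2439, 1970 and 1155 in IMQ-treated skin, with overlapping groups and a log2 fold change of -0.61 (95% confidence interval -1.34 to 0.11). *Tjp1* had 5883, 6705 and 4610 normalized counts in control skin and 7907, 6387 and 4827 in IMQ-treated skin. Its groups overlapped almost in full, with a log2 fold change of 0.15 (95% confidence interval -0.36 to 0.67).

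The makeup of the skin libraries also differed between the groups. The summed FPKM of 10 hair follicle markers was 566, 23.0 and 953 in control replicates 1 to 3 and 8.85 to 15.9 in IMQ-treated skin, with all 6 tested markers lower (2 called) and none at 0 in every IMQ library. Sebaceous gland markers summed to 885 to 1905 FPKM in control skin and 487 to 829 in IMQ-treated skin, with 6 of 6 lower (2 called) and none at 0. The 8 basal keratinocyte markers summed to 2688 to 3611 FPKM in control skin and 4742 to 6437 in IMQ-treated skin, with 5 higher and 3 lower (1 called each way). For the 8 suprabasal markers the sums were 4016 to 10436 and 5986 to 11786 FPKM, with 5 higher and 3 lower (0 called). Neutrophil markers summed to 14.2 to 15.4 FPKM in control skin and 7032 to 8585 in IMQ-treated skin. Of the 5 tested, 4 were called higher and 1 was lower, at a log2 fold change of -2.34 that was not called. The part of these cell types in the change of the members was not tested.

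In the SI, none of the members passed the test between IMQ-treated and control mice. All 9 were tested and 0 were called with edgeR, where 2.95% of the 19965 genes tested were called, and DESeq2 also called 0 of them. At an unadjusted p under 0.05 there was 1, *Ocln*. The estimate was below 0 for 6 of the 9 members with a median log2 fold change of -0.21 against -0.02 over all genes, but scaling the libraries to 8 markers of the SI epithelium left only 2 below 0. That scaling raised the median of all genes by 0.32, to 0.30, and the median of the members was then 0.09. The median of the members also rested on single libraries, at -0.0080 without IMQ replicate 10 and -0.45 without IMQ replicate 11. *Ocln* was also the only member for which every IMQ library lay below every control library, which held for 13.9% of all genes.

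*Ocln* had 7410, 8239 and 8971 normalized counts in control SI and 5222 and 6962 in IMQ-treated SI. Both IMQ libraries were below the lowest control, but the gap to it was small beside the distance between them. The log2 fold change was -0.43 (SE 0.17, 95% confidence interval -0.83 to -0.03, adjusted p = 0.360, edgeR), and it stayed below 0 under the 10 other models and the 5 fits with a library removed, at -0.65 to -0.12. The interval was wide with 2 IMQ libraries and reached from -0.83 to nearly no change.

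The abundant claudins of the SI did not differ beyond their spread. *Cldn7* had 25757, 28457 and 34247 normalized counts in control SI and 21396 and 25870 in IMQ-treated SI, with a log2 fold change of -0.32 (95% confidence interval -0.78 to 0.14). *Cldn15* had 37309, 28701 and 36930 against 25381 and 33966, with a log2 fold change of -0.21 (-0.72 to 0.30). In both genes the higher IMQ library, replicate 11, lay within the range of the controls.

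*Cldn3* had 15737, 10733 and 11021 normalized counts in control SI and 9134 and 16019 in IMQ-treated SI, so the IMQ libraries lay on either side of all controls. Its log2 fold change was 0.01 (95% confidence interval -0.64 to 0.66). *Cldn2* had 5531, 3555 and 4520 normalized counts against 2610 and 4497, with a log2 fold change of -0.35 (-0.98 to 0.28).

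*Cldn4* in the SI turned on 1 control library. It had 808, 932 and 4361 normalized counts in control replicates 7 to 9 and 2732 and 2931 in IMQ replicates 10 and 11. The IMQ libraries were alike and lay between the controls. The log2 fold change was 0.48 (SE 0.67, adjusted p = 0.870, edgeR), and without control replicate 9 it was 1.70 (adjusted p = 0.00630). The summed FPKM of 6 markers of the proximal SI was 90.9, 54.1 and 230 in control replicates 7 to 9 and 301 and 481 in IMQ replicates 10 and 11, so replicate 9 was the control nearest to the IMQ libraries in this measure. For 6 markers of the distal SI the sums were 249.6, 517 and 359 against 183 and 122, and there replicate 7 was the nearest. The part of either in the value of *Cldn4* was not tested.

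The less abundant members of the SI did not pass the test. *Tjp1* had 6346, 8199 and 7326 normalized counts in control SI and 6349 and 5963 in IMQ-treated SI, with a log2 fold change of -0.24 (95% confidence interval -0.60 to 0.11). *Cldn23* had 1049, 1370 and 1377 against 823 and 1364, with a log2 fold change of -0.21 (-0.77 to 0.35). *Cldn1* had 19 to 46 counts in the SI libraries, and its log2 fold change was 0.21 (-0.69 to 1.10), so at this depth only large changes could be seen.

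**Figure D4:**
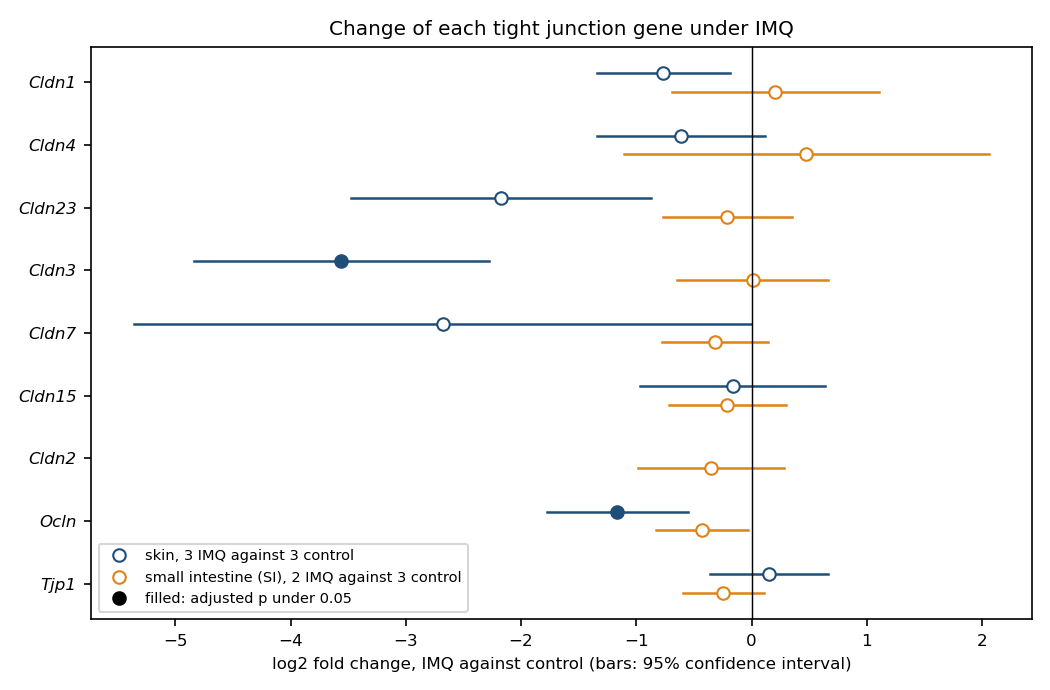
Log2 fold change of IMQ-treated against control mice (horizontal axis) for each of the 9 genes in skin (blue) and small intestine (orange), with 95% confidence intervals from edgeR. Filled points passed an adjusted p under 0.05: these are *Cldn3* at -3.56 and *Ocln* at -1.16 in skin, and *Cldn2* has no value in skin.

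The makeup of the SI libraries differed between the groups as well. The 8 epithelial markers (*Vil1*, *Krt20* and others) summed to 5021 to 5902 FPKM in control SI and 4122 to 4527 in IMQ-treated SI, with all 8 estimates lower at a median log2 fold change of -0.32. The 8 enterocyte markers went the other way in their sum, with 10867 to 17033 FPKM in control SI and 23078 to 26572 in IMQ-treated SI, and 5 of the 8 estimates were higher at a median of 0.55, with none at 0. The 6 proximal markers summed to 54.1 to 230 FPKM in control and 301 to 481 in IMQ-treated SI, with 3 of the 5 tested higher and 1 at 0 in every SI library. The 6 distal markers summed to 249.6 to 517 and 122 to 183 FPKM, with 6 of 6 lower and none at 0. In both lists the groups did not overlap in the sum. Endothelial markers summed to 26.7 to 38.8 FPKM in control SI and 61.8 to 74.5 in IMQ-treated SI, with 6 of 6 higher (2 called). Crypt stem cell markers summed to 295 to 379 FPKM in control SI and 217 to 244 in IMQ-treated SI, with 6 of 6 lower (0 called). For goblet cell markers the sums were 2687 to 3317 and 2067 to 2215 FPKM, with 6 of 6 lower (1 called). For Paneth cell markers they were 8365 to 9456 and 5808 to 6738 FPKM, with 5 of 5 lower (0 called). The part of these differences in the values of the members was not tested.

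The difference between the tissues in the response to IMQ was tested as an interaction in 1 model of all 11 libraries. Of the 8 members tested, 1 was called, *Cldn3*, where 2.55% of the 18108 genes tested were called. Its log2 fold change was higher by 3.57 in the SI than in the skin (SE 0.61, 95% confidence interval 2.22 to 4.92, adjusted p = 0.0136, edgeR). Leaving out SI IMQ replicate 11 gave 3.09 (adjusted p = 0.0580), and the FPKM scale with a pseudocount of 1 gave 1.41 (adjusted p = 0.0890, limma), and these were the only alternatives without the call.

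*Ocln* was not shown to respond differently in the tissues, since its difference was 0.75 (95% confidence interval -0.01 to 1.51, adjusted p = 0.302, edgeR). The difference was 1.98 for *Cldn23* (adjusted p = 0.163), 0.98 for *Cldn1* (adjusted p = 0.293) and 2.36 for *Cldn7* (adjusted p = 0.368), which was 0.19 without skin control replicate 2. *Cldn23* was called with DESeq2 (adjusted p = 0.0447) and without skin control replicate 3 (2.36, adjusted p = 0.0451, edgeR). For *Cldn4* the difference was 1.10 (adjusted p = 0.562), and without SI control replicate 9 it was called at 2.33 (adjusted p = 0.0362, edgeR). For *Cldn15* it was -0.03 (95% confidence interval -1.01 to 0.94), or -0.55 without skin control replicate 2, and for *Tjp1* -0.39 (-1.03 to 0.26).

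Among the 49 other tight junction genes in the table, 41 were tested in the skin, of which 5 were called, all lower in IMQ-treated mice, beside 6.74% of all genes called and 2.69% called lower. The log2 fold change was below 0 for 27 of the 41 (median -0.24). In 13 of the 41 every IMQ library lay below every control library, against 13.3% of all genes. The lists of these genes were written with results of these data known. By role, the 5 were claudins, proteins of the tricellular junction and a scaffold.

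*Cldn8*, a sealing claudin, had 233, 284 and 286 normalized counts in control skin and 80.9, 54.5 and 52.0 in IMQ-treated skin (log2 fold change -2.10, SE 0.26, adjusted p = 0.00832, edgeR). *Cldn10*, an ion-pore claudin, had 448, 313 and 660 against 199, 110 and 135 (-1.68, SE 0.35, adjusted p = 0.0383, edgeR). In both genes the groups were well apart.

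*Marveld2* encodes tricellulin, which closes the corners where 3 cells meet. It had 745, 583 and 647 normalized counts in control skin and 233, 313 and 273 in IMQ-treated skin (log2 fold change -1.27, SE 0.18, adjusted p = 0.0127, edgeR). *Ildr1*, an angulin that recruits tricellulin to these corners, had 144, 186 and 181 against 24.0, 36.0 and 65.7 (-2.02, SE 0.39, adjusted p = 0.0307, edgeR). *Mpdz*, a scaffold with many PDZ domains, had 2559, 2323 and 2887 against 1529, 1465 and 1674 (-0.73, SE 0.12, adjusted p = 0.0207, edgeR). All 3 genes were lower in each IMQ library than in each control library.

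The call of these 5 genes also depended on single libraries: none of them was called without IMQ replicate 5, and only *Cldn8* without control replicate 1 or without IMQ replicate 4. *Cldn5*, the claudin of blood vessels, had a log2 fold change of 0.40 in skin (95% confidence interval -0.23 to 1.04) and of 0.63 in SI (0.12 to 1.14, adjusted p = 0.268, edgeR), beside higher endothelial markers in both tissues (78.1 to 107 FPKM in IMQ-treated skin against 43.3 to 53.6). Their part in the value of *Cldn5* was not tested.

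**Figure D5:**
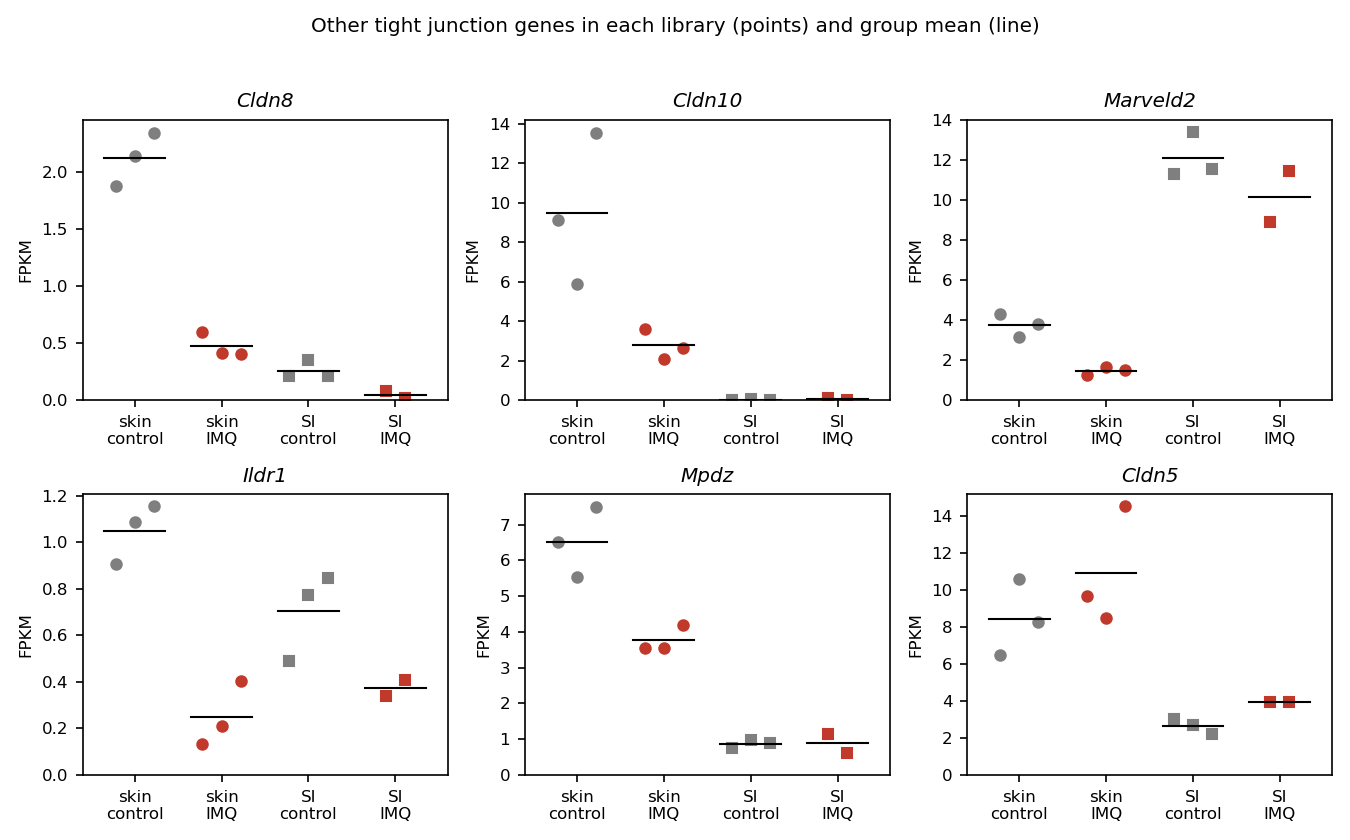
FPKM of the 5 other tight junction genes that were lower in IMQ-treated skin and of *Cldn5* in each of the 11 libraries (points, circles for skin and squares for small intestine, SI; gray for control and red for IMQ), with a line at the group mean and an axis from 0. In the skin the IMQ points of *Cldn8*, *Cldn10*, *Marveld2*, *Ildr1* and *Mpdz* lie below all control points, whereas those of *Cldn5* overlap with them.

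In the SI, 38 of the other tight junction genes were tested and 0 were called with edgeR, with 5 at an unadjusted p under 0.05, and 24 were below 0 at a median log2 fold change of -0.13. Scaled to the epithelial markers, which raised the median of all genes by 0.32 to 0.30, 6 of the 38 were below 0 and their median was 0.22. DESeq2 called 1, *Cldn8*, which had 28, 45 and 33 counts in control SI and 13 and 3 in IMQ-treated SI (log2 fold change -2.17, adjusted p = 0.103 with edgeR). Of the genes called in skin, *Cldn8*, *Ildr1*, *Mpdz* and *Marveld2* could be tested for a difference between the tissues in response. Only *Marveld2* was called (a difference of 1.07, SE 0.23, adjusted p = 0.0388, edgeR). The missing call of the others does not show that they responded alike in both tissues.

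Of 10 adherens junction genes, the belt next to the tight junction, 1 was called in each tissue, where 6.74% (skin) and 2.95% (SI) of all genes were called, so the count is no result about the list. *Nectin3* fell in the skin, with 1707, 1249 and 1631 normalized counts in control and 491, 531 and 622 in IMQ-treated mice (log2 fold change -1.48, SE 0.17, adjusted p = 0.00647, edgeR). In the SI *Nectin4* rose, from 49.9, 43.4 and 27.7 to 231 and 181 normalized counts (2.36, SE 0.33, adjusted p = 0.00998, edgeR). Both genes encode nectins, immunoglobulin-like adhesion proteins. Of 13 transcription factor genes listed as regulators of claudin genes, 9 were tested in skin and 12 in SI, and 1 was called in each, which is likewise no result about the list. *Elf3*, an epithelial factor, rose in the skin (1.35, SE 0.28, adjusted p = 0.0363, edgeR), and *Zeb2*, a repressor of epithelial genes that is also expressed in macrophages, rose in the SI (1.24, SE 0.13, adjusted p = 0.00247, edgeR). Macrophage markers summed to 192 to 258 FPKM in control SI and 422 to 443 in IMQ-treated SI, with 6 of 6 higher (3 called) and none at 0, and their part in the value of *Zeb2* was not tested.

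As a description, log2 normalized counts of the called members were correlated with those of 13827 other genes over the 11 libraries, after centering within each tissue. The points share the libraries and the treatment. The genes most like *Cldn3* were *Lrrn3* (Pearson r = 0.95), *Cacna2d2* (0.94) and *Taf13* (0.94), and 22 genes were above 0.9. Those most like *Ocln* were *Lsr* (0.98), *Prlr* (0.98) and *Slc44a3* (0.97), with 42 above 0.9. *Lsr* encodes another angulin of the tricellular junction, and its log2 fold change in skin was -0.57 (SE 0.15, adjusted p = 0.0728, edgeR). Among the members themselves, the pair most alike was *Cldn23* and *Ocln* (r = 0.91), whereas *Cldn3* and *Tjp1* had r = -0.37.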

How the data were processed

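RNA of skin and SI was sequenced with a stranded mRNA kit as paired-end reads. Per the labels and the methods, the authors aligned reads to mm10 with HISAT2 2.1.0 and quantified genes with StringTie 2.1.3b after trimming. They deposited whole-number read counts without normalization, and how strand and multiply matching reads were treated is not given in the sources used here. The authors also deposited FPKM, scaled by transcript length and library size, used for levels between genes, and TPM, which was not used. No library had a count for 14694 of the 45777 genes.

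Libraries were grouped by their sample titles. Genes counted at least once (1 read) in all libraries of a fit were normalized by relative log expression and tested with edgeR 4.0.16 (R 4.3.3) by the quasi-likelihood F test, in each tissue separately for IMQ against control and in 1 model of 11 libraries for tissues and the interaction. Adjusted p under 0.05 (Benjamini-Hochberg, over all genes tested) was called. SE is the log2 fold change divided by the square root of F, intervals are 95%, and the mean effective library size within a tissue sets the scale of normalized counts. The labels do not say which libraries share a mouse, so p-values measure the spread between 2 or 3 libraries a group, which may be technical. edgeR estimated a biological coefficient of variation of 0.245 (skin) and 0.215 (SI). Totals of 44995414 to 58526384 counts per library limit only genes with few counts. The models were run on simulated data with large changes in well-counted genes and less spread than in these libraries. That run does not bear on calls near the threshold.

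The members and lists were chosen with earlier results of these data known. Named are all members, each called gene of the other tight junction lists, *Cldn5*, up to 4 called adherens junction or regulator genes a tissue and the 3 genes most like a called member by correlation, and *Cldn8* in the SI was named after its values were seen. Other settings tried were normalization by TMM and by the upper quartile, DESeq2 1.42.0, limma-voom (limma 3.58.1), the filterByExpr filter, no filter, limma on log2(FPKM + 0.01) and log2(FPKM + 1), 1 fit of all libraries, scaling to epithelial markers, and each library left out. The epithelial markers of the scaling were the 8 basal keratinocyte markers in skin and the 8 markers of the SI epithelium in SI. The result of 1 further listed gene is not reported here.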

Additional observations from a re-analysis of the deposited data

Results flagged for a closer look

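The response to IMQ differed between the tissues, by the test of the interaction in edgeR with Benjamini-Hochberg adjustment over all genes, for 1 member and 5 of the other named genes. For *Cldn3* the log2 fold change in SI minus that in skin was 3.57 (adjusted p = 0.0136), with -3.56 in skin, where all 3 IMQ libraries were below all controls, and 0.01 in SI. It was 1.07 for *Marveld2* (adjusted p = 0.0388), with -1.27 in skin and -0.21 in SI. It was 1.13 for *Nectin3* (adjusted p = 0.0157), with -1.48 and -0.35. It was 2.53 for *Nectin4* (adjusted p = 0.0104), with -0.16 in skin and 2.36 in SI. It was 0.97 for *Zeb2* (adjusted p = 0.0208), with 0.28 and 1.24, and -1.38 for *Elf3* (adjusted p = 0.0470), with 1.35 and -0.04.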

How the results depend on the processing

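Of 262 log2 fold changes of members under other settings, 227 kept their direction and side of the threshold, 10 lost the call, 8 gained it and 17 changed direction. In skin the number of members called (2) was 5 with DESeq2, 3 in 1 fit of all libraries and 3 scaled to the basal keratinocyte markers. It was 1 with limma-voom, 1 without a filter, 1 on log2(FPKM + 1) and 0 to 4 with a library left out. The number of other tight junction genes called (5) was 11 with DESeq2, 10 in 1 fit of all libraries and 0 to 7 with a library left out. In SI the numbers (0 and 0) became 0 to 1 for members with a library left out, and 1 for other genes with DESeq2 and 1 in 1 fit of all libraries (*Cldn8*). For the interaction (1) there were 2 with DESeq2, 0 on log2(FPKM + 1) and 0 to 2 with a library left out. Between the tissues, 6 to 8 members were called under every setting.

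None of the values that changed direction was called. In SI *Cldn3* was -0.052 with upper-quartile normalization, -0.020 with limma-voom, -0.068 on log2(FPKM + 0.01), -0.067 on log2(FPKM + 1) and -0.0066 in 1 fit of all libraries. Scaled to epithelial markers, *Cldn7* was 0.0057, *Cldn15* 0.10, *Cldn23* 0.092 and *Tjp1* 0.083. With a library left out, SI values ran from -0.022 to 0.40 for *Cldn1*, from -0.45 to 0.37 for *Cldn3* and from -0.62 to 0.11 for *Cldn23*, and skin values from -0.37 to 0.33 for *Cldn15* and from -0.029 to 0.32 for *Tjp1*. The cause was not tested. No paired analysis was possible because the replicate numbers 1 to 11 are not shared between groups. The number of libraries limits the precision of abundant members, and low counts add to it for *Cldn1* in SI and *Cldn2* in skin.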
